A study of Mus musculus with 10 samples.

Results

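A set of 10 genes of antigen presentation and antigen-presenting cells was followed in mouse CD8+ T cells from co-culture with tumor cells, out of 57825 genes in the deposited table. The rule names them as genes of MHC class II (H2-Aa, H2-Ab1, H2-Eb1, H2-DMa, H2-DMb1, Cd74 and Ciita) and as genes of antigen-presenting cells (Cd86, Lyz2 and Csf1r). The study asked how acetate acts on CD8+ T cells that meet cancer cells. The tumor cells were 4T1, a mammary carcinoma line of Balb/c mice. All 10 samples were labelled as spleen CD8+ T cells at day 3 of co-culture with 4T1 cells, 5 without acetate (CD8+4T1) and 5 with it (CD8+4T1+NaAc). By the methods, T cells isolated from spleens of female Balb/c mice received IL-2 and anti-CD28 on anti-CD3 plates for 12 h, were kept for 24 h with or without 5 mM sodium acetate, and then stayed with the tumor cells for 48 h. Both groups therefore shared activation and tumor cells, and RNA came from purified CD8+ T cells; how they were separated from the tumor cells is not given in the sources used here. Nothing in the labels says that the 5 samples of a group came from separate cultures or animals, so the p-values measure only the spread between these samples, which may be technical.

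MHC class II molecules are heterodimers of an alpha and a beta chain that show peptides from endocytosed proteins to CD4+ T cells. Their chains assemble on the invariant chain, encoded by Cd74, which is cut away by lysosomal proteases before H2-DM exchanges the remaining fragment for a peptide. Transcription of these genes depends on the coactivator CIITA, which is brought to conserved X and Y boxes in their promoters by the RFX, NF-Y and CREB factors. Dendritic cells, macrophages and B cells make class II constitutively, interferon gamma induces it in many other cells including tumor cells, and mouse T cells are known for making little of it.

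The promoters of 3 members are shown because they hold the letters of the X and Y boxes known from class II genes. The stretches come from RefSeq (GRCm38.p6) and are written 5′ to 3′ on the strand of the gene, and each ends before the start site; capitals mark first the X box (searched as CTNGNAACT) and then the Y box (TGATTGG). They lie at chr17:34287847-34287927 (minus strand) for H2-Aa, the alpha chain of I-A, at chr17:34305753-34305832 (plus strand) for H2-Eb1, the beta chain of I-E, and at chr17:34153074-34153154 (plus strand) for H2-DMb1, a beta chain of H2-DM.
H2-Aa: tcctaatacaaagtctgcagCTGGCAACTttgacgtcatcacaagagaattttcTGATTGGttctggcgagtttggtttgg
H2-Eb1: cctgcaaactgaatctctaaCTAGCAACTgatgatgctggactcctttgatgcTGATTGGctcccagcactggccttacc
H2-DMb1: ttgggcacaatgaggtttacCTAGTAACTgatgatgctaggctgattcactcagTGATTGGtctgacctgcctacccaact

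The X box began 84 bases before the start site in H2-Aa, 94 in H2-Eb1 and 97 in H2-DMb1, and the Y box began 34, 33 and 34 bases after the X box. RefSeq windows around the start site were matched for 5 of the 10 members, and those of H2-DMa and Lyz2 held neither set of letters. Of 32851 windows of all genes, 4.10% held the X letters and 7.82% the Y letters on either strand. The pair in this order, on the strand of the gene and 15 to 45 bases apart, was found in 0.0152% of windows, which belonged to 5 genes (H2-Aa, H2-Eb1, H2-DMb1, 1700048F04Rik and BC051142). Letters and spacing were set after reading the windows of the members, so these shares are no test. A match is a description and not a bound site.

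The values were FPKM, in which the fragments of a gene are divided by its length and by the depth of the sample. Depth was 16306447 to 18853726 fragments. The FPKM could be turned back into whole fragments, which are given where a gene rests on few. The 15710 genes whose mean FPKM reached 0.5 entered a limma comparison on log2(FPKM + 0.1), a scale that understates the change of low genes, and a gene is called here when its Benjamini-Hochberg adjusted p over all of these is under 0.05. The listed genes held 95.5% to 97.9% of fragments in the CD8+4T1 samples and 89.8% to 92.1% in the CD8+4T1+NaAc samples. Replicate 1 of both groups stood apart, with 22291 and 20233 genes above 0 against 23786 or more in the other samples. The samples fitted their T cell label, since Cd8a was at 78.6 ± 2.34 FPKM (SD, n = 5) in CD8+4T1. It was at 76.5 ± 4.37 FPKM in CD8+4T1+NaAc (limma adjusted p = 0.559). Of 15 T cell markers, 7 were called lower with acetate and 1 higher. Scaling by other means moved the median log2 difference of all genes from −0.02 to 0.16 when samples were brought to the same total FPKM, and the genes called higher from 2764 of 5742 to 4918 of 6304.

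Acetate-treated samples held more transcript of H2-Aa, H2-Eb1 and Cd74, by 6.90, 2.98 and 2.01 times in mean FPKM, while H2-Ab1 lay at nearly the same level in both groups. Cd86, which was under the filter, had 2.03 times the mean FPKM, and its groups did not overlap. Lyz2 was called higher at 2.09 times, with overlapping groups. In bulk samples like these, fewer cells of a type and less RNA per cell cannot be told apart. Of the 10 members, 6 passed the filter and 4 of them were called higher, where 36.5% of all genes tested were called, 17.6% higher and 19.0% lower. H2-Aa passed the filter through the CD8+4T1+NaAc samples, where it is high. Groups did not overlap, with CD8+4T1+NaAc higher, for 3 of the 6 members in the test (H2-Aa, H2-Eb1 and Cd74), against 13.1% of the genes tested that were separated in this direction and 13.3% in the other.

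**Figure D1:**
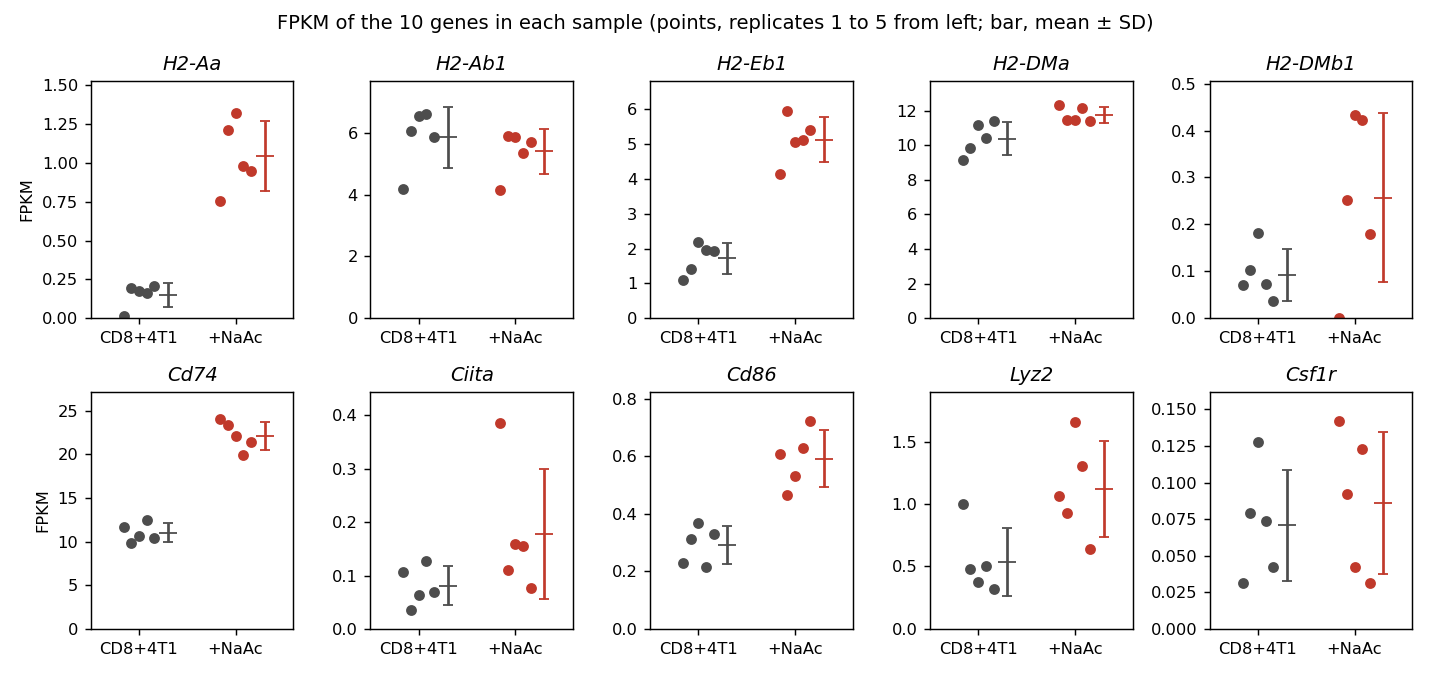
FPKM of each of the 10 genes (vertical axes, each from 0) in the 5 CD8+4T1 and 5 CD8+4T1+NaAc samples; points are samples and bars the mean ± SD. The groups are apart for H2-Aa, H2-Eb1, Cd74 and Cd86, and overlap for the other genes.

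Among the chain genes, H2-Aa was at 0.0158, 0.196, 0.178, 0.160 and 0.207 FPKM in CD8+4T1 replicates 1 to 5 and at 0.755, 1.21, 1.32, 0.981 and 0.951 FPKM in CD8+4T1+NaAc replicates 1 to 5. Every acetate-treated sample was above every untreated one, and replicate 1 was the lowest of its group in both. The mean was 0.151 ± 0.0779 FPKM (SD, n = 5) without and 1.05 ± 0.226 FPKM with acetate, and the log2 fold change came to 2.24 ± 0.35 (SE; adjusted p = 0.000665 by limma). The untreated values rested on 1 to 13 fragments per sample and the treated ones on 49 to 87. With so few fragments the size of the change depended on the scale: it was 0.82 with a pseudocount of 1 and 3.03 by voom on the recovered fragments, and it was called in all 21 alternatives.

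H2-Eb1 was at 1.11, 1.42, 2.18, 1.97 and 1.93 FPKM in CD8+4T1 replicates 1 to 5 and at 4.15, 5.95, 5.05, 5.11 and 5.39 FPKM in CD8+4T1+NaAc replicates 1 to 5. The lowest treated sample was above the highest untreated one, and replicate 1 was again the lowest of each group. The log2 fold change was 1.55 ± 0.17 (SE, adjusted p in limma = 9.06e-05), on 36 to 69 fragments per sample without and 138 to 218 with acetate. A lncRNA on the other strand that overlaps H2-Eb1, Gm20513, was near 0 (0.0243 and 0.0159 FPKM on average).

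H2-Ab1, the beta chain that pairs with the product of H2-Aa, was at 4.17, 6.05, 6.57, 6.62 and 5.88 FPKM in CD8+4T1 replicates 1 to 5 and at 4.17, 5.91, 5.88, 5.34 and 5.72 FPKM in CD8+4T1+NaAc replicates 1 to 5. The groups overlapped, with untreated replicates 2, 3 and 4 above the highest treated sample, and both replicate 1 samples were the low ones. The log2 difference was −0.11 (95% interval −0.41 to 0.20, limma adjusted p = 0.583). It changed sign to 0.07 when samples were brought to the same total, again without a call.

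The chain genes were also set against each other within samples, as a description with no test, since the pairs were chosen after their values were seen. The log2(FPKM + 0.1) of H2-Aa minus that of H2-Ab1 went from −4.63 ± 0.36 (SD, n = 5) to −2.28 ± 0.15, a difference of 2.35 between the group means. For H2-Eb1 minus H2-Ab1 the group means differed by 1.66, and for Cd74 minus H2-Ab1 by 1.11. As ratios per length, H2-Ab1 was at a median of 37.0 times the FPKM of H2-Aa without acetate (28.3 to 265) and at 5.45 times with it (4.44 to 6.01). H2-Ab1 was at 3.36 times the FPKM of H2-Eb1 without and 1.05 times with acetate. The mouse reference genome is of another strain, C57BL/6, whose class II alleles differ from those of Balb/c, and how well the reads of each chain gene aligned was not tested.

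Of the genes that act in peptide loading, Cd74 was at 11.7, 9.87, 10.7, 12.5 and 10.4 FPKM in CD8+4T1 replicates 1 to 5 and at 24, 23.3, 22.1, 19.9 and 21.4 FPKM in CD8+4T1+NaAc replicates 1 to 5. All 5 treated samples were above all untreated ones, with replicate 1 not low here. The mean was 11.02 ± 1.05 FPKM (SD, n = 5) without and 22.1 ± 1.61 FPKM with acetate, and the log2 fold change was 1.0 ± 0.07 (SE, adjusted p in limma = 1.54e-05). It was the best measured of the members that rose, with 288 to 739 fragments per sample. Cd8a stood at a median of 7.49 times the FPKM of Cd74 without acetate (6.27 to 7.88) and 3.65 times with it (3.03 to 3.82).

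H2-DMa, the alpha chain of the peptide exchanger, was at 9.11, 9.84, 11.1, 10.4 and 11.4 FPKM in CD8+4T1 replicates 1 to 5 and at 12.3, 11.4, 11.5, 12.1 and 11.4 FPKM in CD8+4T1+NaAc replicates 1 to 5. The groups met between 11.37 and 11.41 FPKM, with 1 untreated sample (replicate 5) above the lowest treated one (replicate 5). The log2 difference was 0.18 (95% interval 0.03 to 0.32) and missed the threshold (limma adjusted p = 0.0531). It was called, at 0.36, when samples were brought to the same total (adjusted p = 0.00118), and also without CD8+4T1 replicate 3 (limma adjusted p = 0.0477) or 5 (limma adjusted p = 0.0310). H2-DMa shares 3094 bases of its span with Brd2 on the other strand, which was at 43.7 FPKM without and 48.5 FPKM with acetate; the strand setting of the counting is not given in the sources used here, so reads of the pair cannot be told apart.

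Its partner H2-DMb1 was under the filter, with 2, 3, 5, 2 and 1 fragments in CD8+4T1 replicates 1 to 5 and 0, 8, 12, 12 and 5 fragments in CD8+4T1+NaAc replicates 1 to 5. The groups overlapped: treated replicate 1 had none, a count that allows up to 0.104 FPKM, and treated replicate 5 (0.179 FPKM) was also under untreated replicate 3 (0.182 FPKM). The difference of mean log2(FPKM + 0.1) was 0.72 (two-sided exact permutation test, p = 0.167), and without that sample it was 1.12 (p = 0.0238 by the same exact permutation test). H2-DMb2, a near-identical copy whose reads the counting could split, was at 1.61 ± 0.254 FPKM (SD, n = 5) without and 2.77 ± 1.15 FPKM with acetate, a log2 fold change of 0.68 (limma adjusted p = 0.0370). The values of H2-DMb1 are uncertain for that reason.

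Ciita, the class II transactivator, was also under the filter. It was at 0.107, 0.0361, 0.0643, 0.127 and 0.0699 FPKM in CD8+4T1 replicates 1 to 5 and at 0.386, 0.111, 0.159, 0.155 and 0.0758 FPKM in CD8+4T1+NaAc replicates 1 to 5. Treated replicate 1, the sample lowest in H2-Aa, H2-Ab1 and H2-Eb1 in its group, was the highest in Ciita with 63 fragments, and the groups overlapped. The difference of mean log2(FPKM + 0.1) was 0.55 (two-sided exact permutation test, p = 0.0714). It was 0.32 without that sample (exact permutation p = 0.143), and passed an unadjusted 0.05 without CD8+4T1 replicate 4 (exact permutation p = 0.0397) or CD8+4T1+NaAc replicate 5 (exact permutation p = 0.0317). Dexi overlaps Ciita over 25888 bases on the other strand and was at 5.02 and 6.06 FPKM, far above Ciita, and without the strand setting the origin of these few reads is uncertain.

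Cd86, a ligand of CD28 and CTLA-4 on antigen-presenting cells, was at 0.229, 0.313, 0.369, 0.216 and 0.331 FPKM in CD8+4T1 replicates 1 to 5. It was at 0.607, 0.464, 0.530, 0.630 and 0.724 FPKM in CD8+4T1+NaAc replicates 1 to 5. The lowest treated sample was above the highest untreated one, and samples held 13 to 22 fragments without and 32 to 44 with acetate. The difference of mean log2(FPKM + 0.1) was 0.82 (two-sided exact permutation test, p = 0.00794, unadjusted, 1 of 4 such tests), the smallest p that 5 samples against 5 can give. Cd86 was called in the limma test with no filter (adjusted p = 0.0166) or a filter of 0.1 FPKM (adjusted p = 0.0124, limma), and at 1.01 by voom without the filter, an alternative added after the data were seen (limma adjusted p = 0.0162).

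Lyz2, the lysozyme of macrophages and neutrophils, was at 1.0, 0.479, 0.373, 0.507 and 0.322 FPKM in CD8+4T1 replicates 1 to 5. It was at 1.07, 0.927, 1.66, 1.303 and 0.641 FPKM in CD8+4T1+NaAc replicates 1 to 5. Untreated replicate 1 was above treated replicates 2 and 5 and set the overlap, since the other untreated samples stayed under the lowest treated one. The log2 fold change was 0.96 ± 0.31 (SE, adjusted p in limma = 0.0328), on 7 to 36 fragments per sample. The call was lost in 6 of 10 fits that left out 1 sample, namely CD8+4T1 replicate 2, 3, 4 or 5 or CD8+4T1+NaAc replicate 3 or 4 (limma adjusted p from 0.0573 to 0.0853). Lyz2 has a close paralog, Lyz1, with which its reads can be shared.

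Csf1r, the receptor of the macrophage growth factor CSF1, was at 0.0311 to 0.127 FPKM in CD8+4T1 and at 0.0313 to 0.142 FPKM in CD8+4T1+NaAc, that is 3 to 14 fragments per sample. The ranges of the groups nearly coincided (difference of mean log2(FPKM + 0.1) 0.11, two-sided exact permutation test, p = 0.595). A difference was not detectable at this depth. Hmgxb3 overlaps its end by 873 bases on the other strand.

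By level per length, Cd74 (11.02 FPKM) and H2-DMa (10.4 FPKM) led without acetate and did not differ beyond their spread. H2-Ab1 (5.86 FPKM), H2-Eb1 (1.72 FPKM) and Lyz2 (0.536 FPKM) followed, and Cd86 and H2-Aa were at 0.291 and 0.151 FPKM. H2-DMb1, Ciita and Csf1r came last at 0.0928, 0.0809 and 0.0707 FPKM, within their spread of each other. With acetate Cd74 (22.1 FPKM) stood alone above H2-DMa (11.7 FPKM), H2-Ab1 and H2-Eb1 lay within their spread at 5.402 and 5.13 FPKM, and so did Lyz2 and H2-Aa at 1.12 and 1.05 FPKM.

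The wider list of class II chain and peptide loading genes holds 6 of the members. Of its 18 genes, 15 were tested and 11 were called higher (H2-Aa, H2-Eb1, Cd74 and 8 that are no members). Of all genes tested, 17.6% were called higher. The median log2 fold change of the list was 0.68 beside −0.02 for all genes tested. The lysosomal protease Ctsl had the largest change in the list after H2-Aa and H2-Ea, with 9.18 ± 0.896 FPKM (SD, n = 5) without and 33.4 ± 9.05 FPKM with acetate (log2 fold change 1.82, limma adjusted p = 3.04e-05). Lgmn, an asparaginyl endopeptidase of the same compartment, rose from 3.20 ± 0.523 to 10.3 ± 1.43 FPKM (1.67, limma adjusted p = 1.66e-05). H2-Ea, the alpha chain that pairs with the product of H2-Eb1, rose from 0.406 ± 0.174 to 1.83 ± 0.716 FPKM (1.93, limma adjusted p = 0.00116), on 3 to 10 and 19 to 53 fragments. Like H2-Aa, it passed the filter only through the treated samples, so both had to be higher to be counted. H2-Oa and H2-Ob, chains of the H2-DM inhibitor H2-O, were higher by 0.92 and 0.49 on the log2 scale, and Ctsb by 0.51 and the thiol reductase Ifi30 by 0.48. Ctss, the protease best known for the last cut of the invariant chain, was at 32.2 and 27.3 FPKM and was not called (−0.25, limma adjusted p = 0.107). With the replicate block 1 gene of this list was called lower, and also 1 without CD8+4T1+NaAc replicate 5. In neither fit was it H2-Ab1, the other gene of the list with a negative log2 difference among those tested. The ubiquitin ligase Marchf8 was not called either. The summed level of the list was 110 to 131 FPKM without and 172 to 214 FPKM with acetate.

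**Figure D2:**
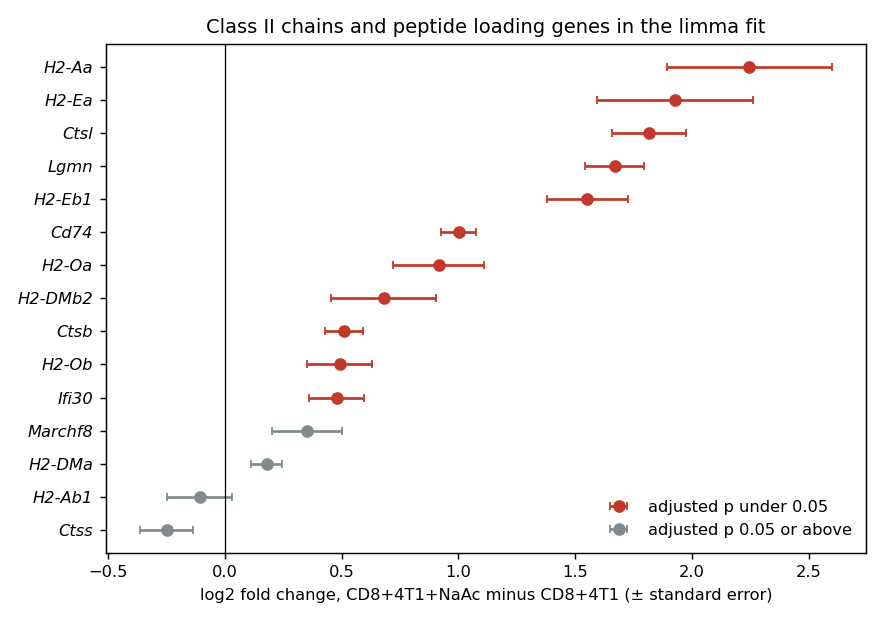
log2 fold change of log2(FPKM + 0.1), CD8+4T1+NaAc minus CD8+4T1 (horizontal axis, ± standard error), for the 15 genes of the class II chain and peptide loading list in the limma test. The 11 genes in red were called higher, from 0.48 for Ifi30 to 2.24 for H2-Aa, and H2-DMa, H2-Ab1, Ctss and Marchf8 in grey were not called.

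Genes that act upstream were read as lists of their own. Of 8 genes of class II transcription, 7 were tested and 4 were called lower, against 19.0% of all genes tested, with a median of −0.30. These were Nfya (−0.59, limma adjusted p = 9.75e-05), Nfyb (−0.49, limma adjusted p = 3.07e-05), Rfxap (−0.35, limma adjusted p = 0.0413) and Creb1 (−0.30, limma adjusted p = 0.00916), whose products bind the X or Y boxes. Rfx5, Rfxank and Nfyc were not called. With samples brought to the same total, 2 genes of this list were called lower and 1 higher. Among 10 genes that lead from interferon gamma to CIITA, Socs1, a feedback inhibitor of the pathway, rose by 0.76 and the receptor chain Ifngr1 by 0.46, and Irf2 fell by 0.50 on the log2 scale. The median of this list was −0.02, as over all genes tested, and 5 of its genes were called higher and 1 lower with samples brought to the same total. Ifng itself was at 481 ± 61.6 FPKM (SD, n = 5) without and 408 ± 107 FPKM with acetate (limma adjusted p = 0.243).

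Cd86 was also set beside the other costimulatory and coinhibitory ligands. Of 9 tested genes of that list, 4 were called lower, against 19.0% of all genes tested. These were Pdcd1lg2 (−0.50), Cd70 (−0.49), Cd80 (−0.44) and Cd274 (−0.36), and the median of the list was −0.23. Cd80, which binds the same receptors as Cd86, was at 40.7 ± 2.64 FPKM (SD, n = 5) without and 30.1 ± 2.23 FPKM with acetate (limma adjusted p = 0.000436).

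Markers of other cells were read beside these results. Of all genes tested, 17.6% were called higher and 19.0% lower. Of 11 markers of 4T1 and epithelial cells, 6 were tested and 4 were called higher. Their summed level was 7.37 to 17.7 FPKM in CD8+4T1 and 62.5 to 169 FPKM in CD8+4T1+NaAc, and no marker of this list was at 0 in all samples. The keratin Krt8 was at 3.42 ± 1.69 FPKM (SD, n = 5) without and 34.2 ± 13.1 FPKM with acetate (3.33 on the log2 scale, adjusted p = 8.10e-05 by limma), while Lcn2, Krt7 and Krt18 rose by 3.28, 3.03 and 2.89, of which Krt7 passed the filter only through the treated samples. Epcam (0.519 and 0.699 FPKM, limma adjusted p = 0.305) and Cldn7 (0.649 and 0.637 FPKM, limma adjusted p = 0.994) were tested and not called. Krt8, Krt18 and Lcn2 made up most of the summed level. The groups did not overlap in this sum, as for H2-Aa, H2-Eb1, Cd74 and Cd86. Among the treated samples it was highest in replicate 2 (169 FPKM) and lowest in replicate 5 (62.5 FPKM). H2-Eb1 and H2-Ab1 were also highest in treated replicate 2 and H2-Aa was highest in replicate 3, with replicate 1 lowest for all of them. Cd74 was highest in treated replicate 1 and lowest in replicate 4, and Cd86 was highest in replicate 5 and lowest in replicate 2. The part of tumor cell RNA in the members' differences was not tested.

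The 21 macrophage and monocyte markers summed to 29.0 to 39.3 FPKM without and 30.5 to 35.7 FPKM with acetate, most of it Cd68 (25.8 and 22.8 FPKM). Of the 8 tested, Lyz2 and Mpeg1 (0.95, limma adjusted p = 0.0152) were called higher. The complement gene C1qb was at 0 in every sample, and C1qa and C1qc had at most 1 fragment in any. Itgam had 0 to 7 fragments per sample without and 7 to 13 with acetate, and Adgre1 had 3 to 17 and 10 to 18.

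The 10 dendritic cell markers summed to 121 to 127 FPKM without and 123 to 134 FPKM with acetate, mainly Irf8 (108 and 105 FPKM), which activated T cells also express. Of the 5 tested, Fscn1 was called higher (1.03, limma adjusted p = 0.000729); Cd209a and Siglech were at 0 in every sample. The 14 B cell markers summed to 14.1 to 15.2 FPKM without and 15.1 to 24.1 FPKM with acetate. Most of this was Ighm (9.10 and 11.3 FPKM) and Cd79b (3.58 and 4.64 FPKM), neither of which was called. Of the 4 tested, only Igkc was called higher, on 1 to 2 fragments per sample without and 2 to 22 with acetate. Igkc too passed the filter only through the treated samples. This count of 1 depended on the fit. It became 3 once CD8+4T1+NaAc replicate 1 was dropped, alone or together with CD8+4T1 replicate 1. Scaling by total FPKM also gave 3, and the replicate block gave 2. Ms4a1 and Pax5 had at most 2 and 3 fragments in any sample. The 10 neutrophil markers summed to 0.609 to 1.29 FPKM without and 2.41 to 4.96 FPKM with acetate, which was mostly S100a8 (0.398 ± 0.318 and 2.94 ± 1.13 FPKM, SD, n = 5), the 1 gene tested, which was called higher (limma adjusted p = 0.00181) and passed the filter only through the treated samples; S100a9 and Retnlg were at 0 in every sample. The 6 NK and CD4 T cell markers summed to 13.5 to 15.5 FPKM without and 11.9 to 18.0 FPKM with acetate. Most of this sum was Zbtb7b (13.5 and 12.4 FPKM), so it says little about the other markers of the list. Of the 2 tested, Cd4 rose from 0.541 ± 0.169 to 1.601 ± 0.187 FPKM (log2 fold change 1.44, limma adjusted p = 0.000317). The part of these cells in the members' differences was not tested.

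**Figure D3:**
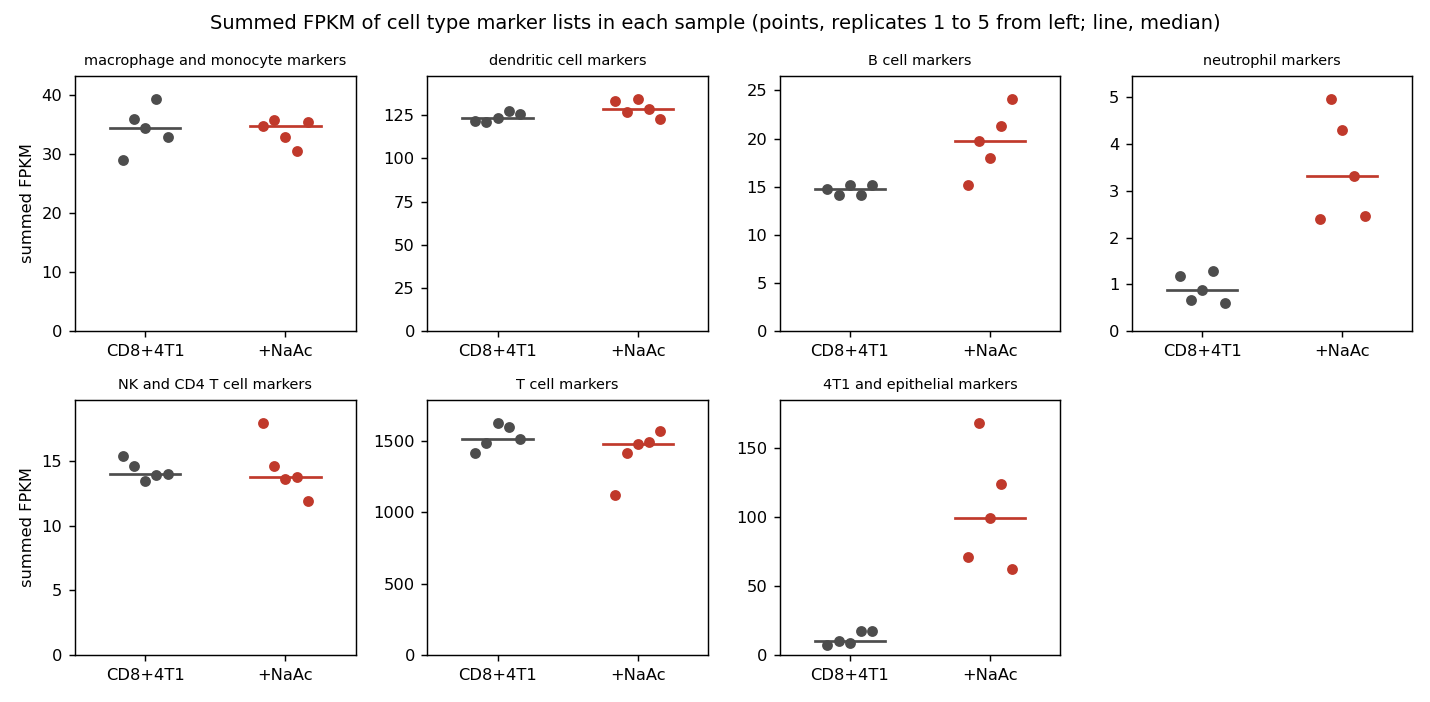
Summed FPKM of each marker list (vertical axes, each from 0) in the 5 CD8+4T1 and 5 CD8+4T1+NaAc samples; points are samples and lines medians. The 4T1 and epithelial sum (7.37 to 17.7 against 62.5 to 169 FPKM) and the neutrophil sum (0.609 to 1.29 against 2.41 to 4.96 FPKM) do not overlap between groups, and the macrophage, NK and CD4, and T cell sums do.

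The T cell markers were counted in the same way. Of 15, all tested, 7 were called lower and 1 higher, with a median of −0.15. Of all genes tested, 19.0% were called lower and 17.6% higher. Cd3e was among the 7 T cell markers called lower (33.8 ± 1.07 against 26.3 ± 2.06 FPKM, SD, n = 5, limma adjusted p = 0.000608). With samples brought to the same total, 5 were called lower and 5 higher, and without replicate 1 of both groups 7 lower and 3 higher. Their sum was 1416 to 1626 FPKM without and 1120 to 1565 FPKM with acetate. Cd8a was at a median of 161 times the FPKM of Lyz2 without acetate (75.9 to 254) and 68.2 times with it (48.6 to 127).

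Within groups, the chain genes varied together. Over the 10 samples, taken as deviations from their group means, Pearson's r was 0.88 between H2-Aa and H2-Ab1, 0.86 between H2-Ab1 and H2-Eb1 and 0.76 between H2-Aa and H2-Eb1, while Cd74 was at −0.40, −0.27 and −0.10 with H2-Aa, H2-Ab1 and H2-Eb1. These are descriptions, and the low replicate 1 samples enter all of the first 3. The protein-coding genes whose deviations were most like the mean of H2-Aa, H2-Ab1, H2-Eb1 and Cd74, out of 10623 compared, were Ubxn1, Izumo1r, Sec61g, Use1, Rps14, Cox4i1, Uqcc2, Rps13, Ifi27l2a and Tmem141, with r from 0.948 to 0.974. These samples share the 2 libraries with fewer genes detected.

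**Figure D4:**
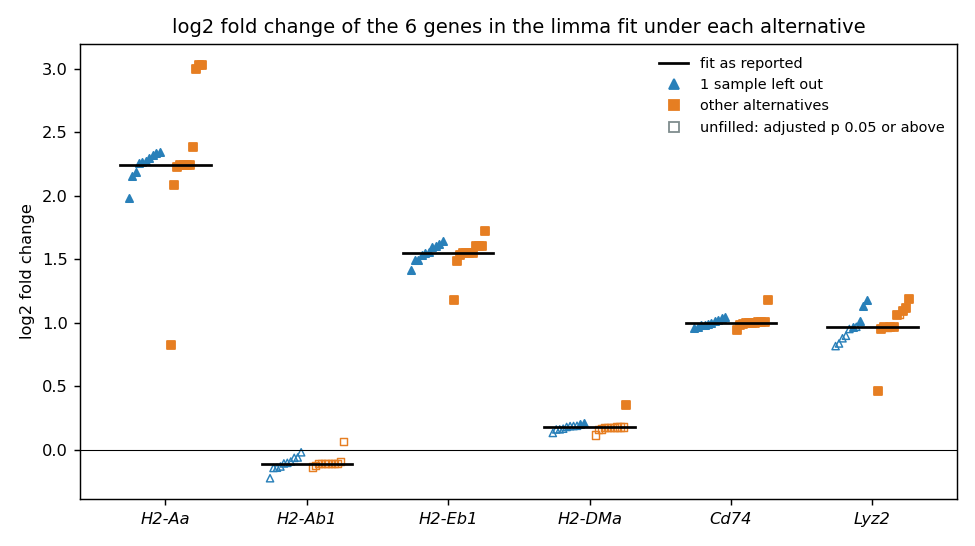
log2 fold change (vertical axis, CD8+4T1+NaAc minus CD8+4T1) of the 6 members in the limma test as reported (line), with 1 sample left out (triangles) and under the other alternatives (squares); unfilled symbols have an adjusted p of 0.05 or above. H2-Aa, H2-Eb1 and Cd74 are filled throughout, H2-Ab1 is unfilled throughout, and H2-DMa and Lyz2 are mixed.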

How the data were processed

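The authors deposited FPKM for 57825 genes, 1 column per sample, without pooling, and a gene length as an other, unnormalized column. The submitters' processing notes name fastp, HISAT2 2.0.5, StringTie 1.3.3b and featureCounts 1.5.0-p3. The authors tested with DESeq2. The genome build is not given in the sources used here. Positions of the deposited table were not mixed with those of GRCm38.p6, from which the promoter windows came. FPKM times gene length gave whole fragments for 100% of values (within 0.1), and the totals of the fragments limit what low genes can show.

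As FPKM are not counts, groups were taken from the labels and compared with limma 3.58.1 in R 4.3.3, with a variance trend and robust moderation, after a filter of 0.5 FPKM on the mean. The threshold was an adjusted p of 0.05 by Benjamini-Hochberg. Members under the filter were compared by exact permutation over the 252 divisions of the samples into 5 and 5. The limma comparison was first tested on simulated data. Figures were drawn with matplotlib 3.10.9.

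The members and lists were chosen with earlier results of these data known. Named genes are all members, the called genes of each list (up to 4 by size) and its 2 highest genes, and the 10 genes most like the class II members; Ctsb, Ifi30, H2-Oa, H2-Ob, H2-DMb2, Marchf8 and other genes named beside them were chosen after their values were seen. The alternatives were pseudocounts of 1 and 0.01, no filter or 0.1 FPKM, 2 other scalings, no moderation trend, voom on the recovered fragments, the replicate number as a block, and samples left out; voom without a filter and samples left out in the permutation tests were added after the data were seen. Some genes of the lists are counted in the sums and medians and are not reported here by themselves.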

Additional observations from a re-analysis of the deposited data

Results flagged for a closer look

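In 46 groups of 5 values (members and library measures), 6 had a sample whose gap to the nearest other sample took an unusually large share of the group's range; chance gives about 1 in 20 groups, here 2.3. In CD8+4T1 replicate 1 this share was 0.828 for H2-Aa on the log2(FPKM + 0.1) scale (−3.11, other samples −1.94 to −1.70) and 0.742 for H2-Ab1 (2.09, others 2.58 to 2.75). In CD8+4T1+NaAc replicate 1 it was 0.7104 for H2-Ab1 (2.09, others 2.44 to 2.59). The number of genes above 0 was low in both replicate 1 samples, with shares of 0.848 (22291, others 23786 to 24054) and 0.916 (20233, others 24681 to 25088). CD8+4T1+NaAc replicate 2 was set apart by its fragments, with a share of 0.747 (18853726).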

How the results depend on the processing

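H2-Aa, H2-Eb1 and Cd74 were called higher in all 21 alternatives, with log2 fold changes of 0.82 to 3.03, 1.18 to 1.72 and 0.95 to 1.18, and H2-Ab1 in none (−0.22 to 0.07). Lyz2 was called in 13 of 21 (0.46 to 1.18); without a filter its limma adjusted p was 0.0540, and 0.0630 by voom. The cause of the lost calls was not tested. Without replicate 1 of both groups 4 members and 10 genes of the class II chain and peptide loading list were called, and 6979 genes in all; leaving out 1 sample gave 4924 to 6930. Neither labels nor values show that the replicate numbers pair the samples (r of same-numbered deviations −0.03 to 0.07, mean 0.01). With the replicate block 5399 genes and 4 members were called, and of the members under the filter 0 passed in place of 1, since 5 pairs cannot give a p under 0.0625, which Cd86 and Ciita both reached. Leaving out 1 sample gave 1 to 2 of them. H2-DMb1, Ciita and Csf1r rested on at most 63 fragments per sample, which limits what could be detected.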
